A study of Rattus norvegicus with 24 samples.

Results

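The comparison described here sets 6 RNA libraries from rat skin injected subcutaneously (SC) with T-gel, a biodegradable polymer gel, against 6 from skin injected subcutaneously with saline. The sample titles chose these 12 libraries out of 24, and every gene of the table entered the comparison. All samples were dorsal skin of Sprague-Dawley rats taken at day 7, and the other 12 libraries came from intradermal (ID) injection of the gel or of saline, 6 each. The labels give no sex, age, dose or layer of skin sampled, and they do not say whether the 6 libraries of a group came from separate animals, so p-values measure only the spread between these samples. The question the design poses is how the tissue response to the gel depends on the site of injection.

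Rodent skin carries a thin sheet of striated muscle, the panniculus carnosus, beneath the subcutaneous fat, and a piece of skin can include more or less of it. Hair follicles pass through cycles of growth and rest, and sebaceous glands, attached to the follicles, make sebum from long-chain fatty acids, sterols and wax alcohols. An implanted polymer typically draws monocytes, which become macrophages, take up lipid and debris into lysosomes and can fuse into multinucleate cells. In bulk tissue, fewer cells of a type and less RNA per cell cannot be told apart, and this holds for every gene group below.

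Transcripts of skin were high in all 12 libraries. Krt5 (basal keratinocytes) ran from 694 to 2260 CPM (reads of a gene scaled to library size), Krt1 (suprabasal keratinocytes) from 1630 to 8400 and Col1a1 (the main collagen chain of dermis) from 13700 to 48900. The libraries held 14024353 to 18821730 counted reads. Log2 levels of pairs within a group correlated at 0.936 or more for gel and 0.967 or more for saline, across genes. The first principal component of the 12 libraries took 73.8% of the variance and parted the groups, with gel replicate 1 (score 27.98) nearest to the saline libraries and the other 5 gel libraries farther out, up to 93.15. The saline libraries scored -80.05 to -58.95.

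Of 14763 genes tested, 7504 differed (50.8% called, quasi-likelihood test of edgeR, Benjamini-Hochberg adjusted p under 0.05). Called higher in gel were 3652 (24.7%), and called lower were 3852 (26.1%). These shares are the background against which each gene group below is to be read. In 3689 genes (25%) the CPM of the 6 gel libraries did not overlap that of the 6 saline libraries. Large changes were mostly falls, with 399 genes lower and 88 higher by at least 3 log2 units. Of the called genes 48.7% were higher. Another scaling alone moved this split little, with 4001 of 7544 called genes higher under RLE factors and 3497 of 7533 under TMM without the muscle list genes. Without SC saline replicate 2 it was 64.5%, with gel replicates 4 to 6 alone 4683 of 7055 were higher, and with limma on log2(FPKM + 1), which changes values, scaling and test together, it was 74.6%. In the limma fit the median gene shifted by 0.19 log2 units, against 0.00 here, and the cause was not tested. The 51 gene lists are shown together in the plot of list medians.

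**Figure D1:**
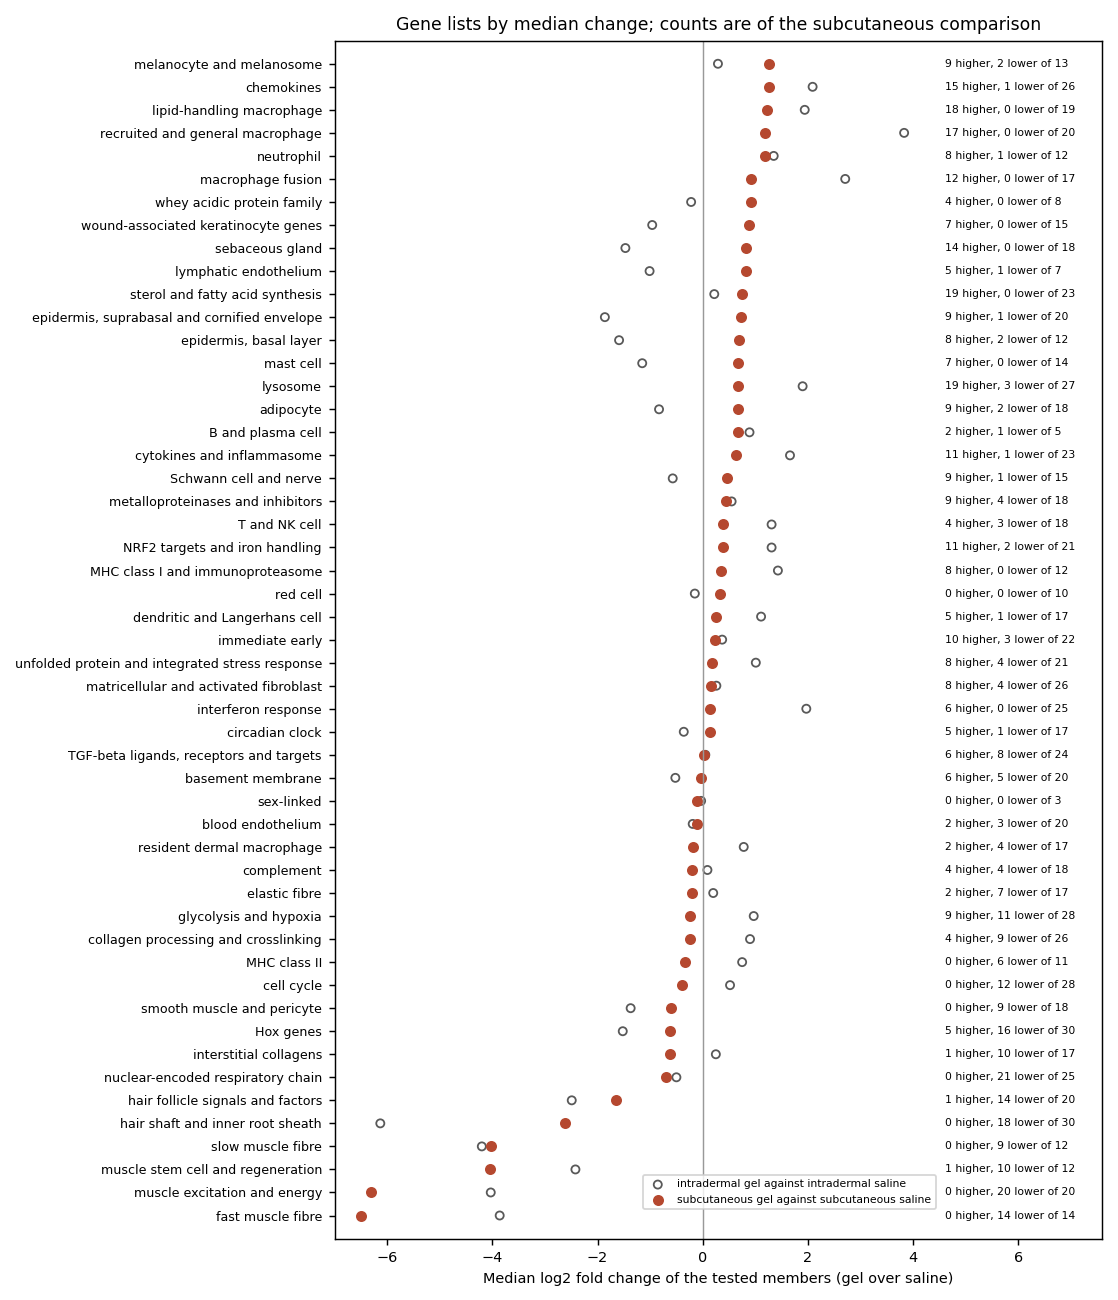
Median log2 fold change of the tested members of each gene list, gel over saline, subcutaneous (filled points) and intradermal (open points); text at the right counts the members called higher and lower in the subcutaneous comparison. The 4 skeletal muscle lists and both hair lists lie farthest below 0 (medians -6.49 to -1.65). Above 0 lie the lists of recruited and general, lipid-handling and fusing macrophages, sebaceous gland, sterol synthesis and epidermis. The sebaceous and epidermal lists have intradermal medians below 0.

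Among the 51 lists, those of skeletal muscle had the lowest medians. All 14 tested genes of fast fibres were lower in gel (median log2 fold change -6.49, all tested genes 0.00), as were all 20 genes of muscle excitation and energy (median -6.31) and 10 of 12 genes of muscle stem cells and regeneration (median -4.04, 1 of the 12 higher). Of 12 slow-fibre genes, 9 were lower and none was higher (median -4.02). However, 6 of the 12 were called lower in SC saline than in ID saline, a comparison in which 3.22% of all genes were called. Against ID saline all 12 were lower in SC gel (median -6.22). The summed CPM of the fast-fibre list was 34800 to 85300 in the saline libraries and 134 to 2450 in the gel libraries. Gel replicate 1 (2450) and gel replicate 3 (672) stood above the other 4 gel libraries (134 to 161), and without gel replicate 1 the median of the list was -8.64.

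Myh4, a fast myosin heavy chain, reached 182 CPM in gel replicate 1, 46.4 in replicate 3 and at most 0.158 in the other 4, against 9850 to 24900 (median 19700) in saline. Its log2 fold change was -8.87 ± 2.14 (SE, adjusted p = 0.00143), and -10.83 without gel replicate 1. Pvalb, the calcium buffer of fast fibres, was more even within the gel group, at 1.19 to 3.18 CPM (median 1.71) against 559 to 1530 (median 963). It fell by 8.91 ± 1.24 on the log2 scale (adjusted p = 3.37e-06). Des, which encodes desmin, an intermediate filament of skeletal and smooth muscle, kept 38.6 to 122 CPM in gel (median 51.2) against 1320 to 3410 (median 2780), a log2 change of -5.31 ± 0.70 (adjusted p = 1.65e-06). No saline library came near a gel library for any of the 3 genes. Myog, a transcription factor of muscle differentiation, was at 4.65 to 10.5 CPM in saline and at 0.311 or less in gel (log2 fold change -5.99 ± 0.84, adjusted p = 3.53e-06).

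Genes of glucose use went both ways. Of 28 genes of glycolysis and hypoxia 9 were higher and 11 lower (median -0.24, -0.02 with limma on log2(FPKM + 1)). Gapdh, a glycolytic enzyme often used as a reference gene, was at 358 to 606 CPM in gel (median 384) and 1880 to 4550 in saline (median 3770), a log2 fold change of -2.97 ± 0.21 (adjusted p = 7.26e-10). Gys1, glycogen synthase, was at 7.94 to 14.0 CPM against 82.4 to 184, a fall of 3.60 ± 0.19 log2 units (adjusted p = 6.68e-12), and Pgm1, which links glycogen to glycolysis, was at 20.6 to 38.3 against 330 to 807. The groups did not overlap in any of them. Pfkp, a phosphofructokinase subunit of other tissues, rose to 65.1 to 88.6 CPM from 37.7 to 43.6 (log2 fold change 0.94 ± 0.10, adjusted p = 1.76e-07), and the glucose transporter Slc2a1 rose to 58.7 to 92.0 from 27.6 to 40.3 (1.18 ± 0.16, adjusted p = 3.39e-06). Of 25 nuclear genes of the respiratory chain, 21 were lower and none was higher (median -0.70). The muscle lists fell with these genes in the same libraries, and their part in the Gapdh, Gys1, Pgm1 and respiratory chain values was not tested. Actb, the other usual reference gene, had 1670 to 2400 CPM in gel and 1430 to 1990 in saline, and its log2 fold change of 0.17 ± 0.12 did not pass the test (adjusted p = 0.255), though it did with limma on log2(FPKM + 1) (0.40, adjusted p = 0.00447) and log2(FPKM + 0.1) (0.40, adjusted p = 0.00439) and without SC saline replicate 2 (0.34, adjusted p = 0.0291).

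**Figure D2:**
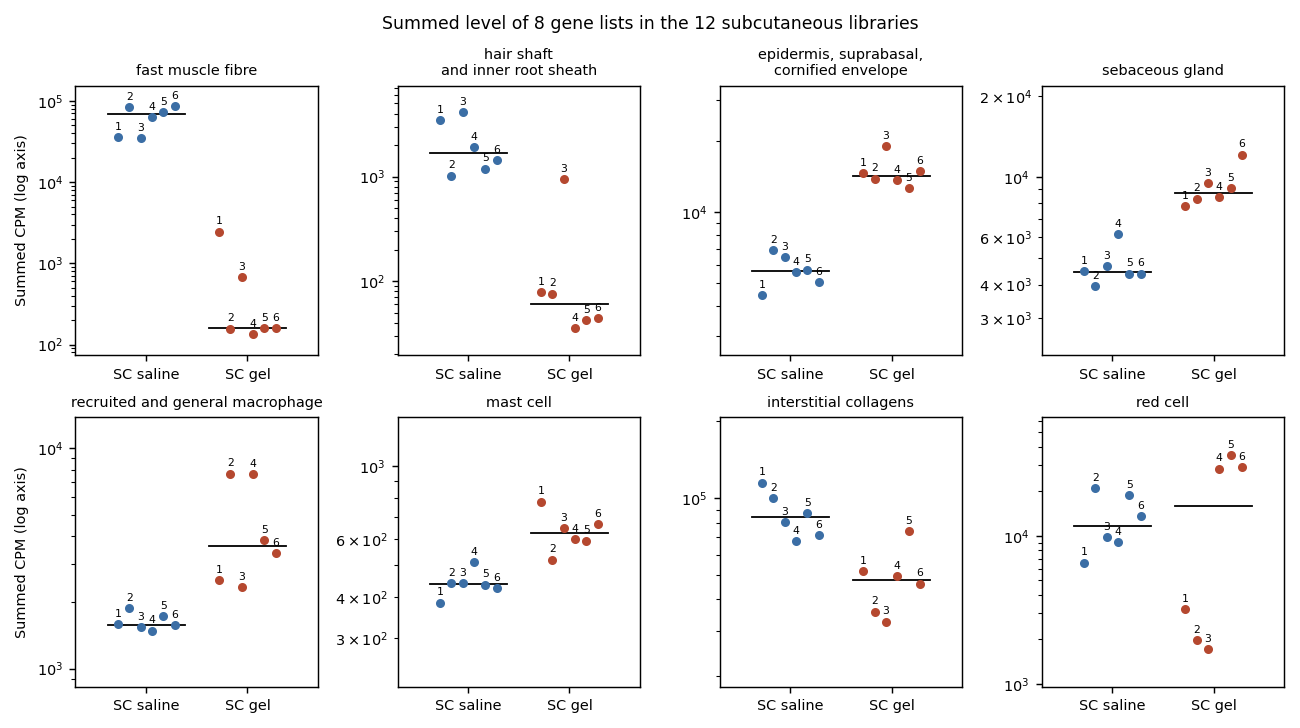
Summed CPM (log axis) of 8 gene lists in the 6 SC saline and 6 SC gel libraries; each point is a library with its replicate number and each bar the group median. Fast muscle sums are at 34800 or more in saline and 2450 or less in gel, gel replicate 3 stands apart for hair (944), gel replicates 2 and 4 for macrophage genes (7670 and 7630), and the red cell sums of gel replicates 1 to 3 and 4 to 6 lie on either side of the saline libraries.

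Hair follicle transcripts were lower as well. Of 30 genes of the hair shaft and inner root sheath, 18 were lower and none was higher (median -2.61), and of 20 follicle signals and transcription factors 14 were lower and 1 was higher (median -1.65). The summed shaft and sheath genes were at 35.3 to 78.2 CPM in 5 gel libraries and at 944 in gel replicate 3, against 1020 to 4110 in saline. Without gel replicate 3, 28 of the 30 genes were lower and the median was -5.24. The highest saline sums were in replicates 1 and 3 (3470 and 4110), which also had the lowest fast muscle sums (35500 and 34800).

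Krt71, a keratin of the inner root sheath, showed the same library apart: 201 CPM in gel replicate 3, 2.96 to 18.7 in the other 5 gel libraries and 265 to 954 in saline. Its log2 fold change was -3.78 ± 0.88 (adjusted p = 0.00105), and -6.13 without gel replicate 3. The signals of the growing follicle did not depend on that library. Shh, the hedgehog ligand made by the follicle matrix, was at 0 to 0.514 CPM in gel (median 0.114) and 4.57 to 10.5 in saline (median 7.67), a log2 change of -5.48 ± 0.50 (adjusted p = 1.37e-08; -6.24 without gel replicate 6). Lef1, a transcription factor of Wnt signalling, fell from 14.2 to 44.7 CPM down to 1.82 to 3.77 (-3.36 ± 0.38, adjusted p = 2.27e-07), and the homeobox gene Msx2 from 20.9 to 56.9 down to 2.20 to 6.24 (-3.33 ± 0.42, adjusted p = 9.21e-07). Wnt10a, a Wnt ligand of both follicle and epidermis, was the member that rose, at 5.69 to 9.07 CPM in gel against 2.38 to 5.65 in saline (0.80 ± 0.24, adjusted p = 0.00903). Against ID saline its call was lost (0.38, adjusted p = 0.187), and none of the 20 genes was higher. Of 28 cell cycle genes 12 were lower and none higher (median -0.40), while limma on log2(FPKM + 1) called 5 lower and 1 higher. Mki67, a proliferation marker, fell by 1.11 ± 0.26 (adjusted p = 0.00115) with overlapping ranges, 22.7 to 37.8 CPM in gel and 24.7 to 115 in saline. Its call was lost against ID saline (-0.35, adjusted p = 0.262) and with gel replicates 4 to 6 alone (-0.79, adjusted p = 0.0613).

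Epidermal and glandular transcripts moved the other way. Among 12 genes of basal keratinocytes 8 were higher and 2 lower (median 0.69), and among 20 of the suprabasal layers and cornified envelope 9 were higher and 1 lower (median 0.72). The summed suprabasal genes were at 12700 to 19100 CPM in gel and 4470 to 6900 in saline, with no overlap. After intradermal gel the same lists had medians of -1.59 and -1.86. For the difference between the gel effects (SC minus ID), 55.8% of all genes were called, and 3389 of 14763 were called higher in SC. All 20 suprabasal genes were called higher in SC. Against ID saline in place of SC saline, the suprabasal median was 0.26 with 7 higher and 1 lower, and the basal median was 0.57 with 8 higher and 1 lower.

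Krt1, the early keratin of differentiating keratinocytes, was at 5550 to 8400 CPM in gel (median 6330) and 1630 to 2950 in saline (median 2220), a log2 fold change of 1.55 ± 0.25 (adjusted p = 1.99e-05). Col17a1, a collagen of the hemidesmosome that anchors basal cells, was at 288 to 434 CPM against 91.6 to 153 (1.50 ± 0.15, adjusted p = 4.92e-08). Tgm3, a transglutaminase that crosslinks the cornified envelope, was at 184 to 310 against 47.4 to 71.3 (2.04 ± 0.23, adjusted p = 2.29e-07). Every gel library lay above every SC saline library for these 3 genes. Tgm3 was lower in SC saline than in ID saline, with a log2 difference of -1.04 (adjusted p = 0.0155), and against ID saline the log2 fold changes were 1.00 for Tgm3 (adjusted p = 0.000619) and 0.99 for Krt1 (adjusted p = 0.00174). Ivl, which encodes the envelope protein involucrin, went the other way, at 5.67 to 12.9 CPM in gel and 18.4 to 40.1 in saline (-1.61 ± 0.28, adjusted p = 5.46e-05). Il20, a cytokine that keratinocytes make and respond to, was at 24.9 to 35.7 CPM in gel (median 30.0) and 4.23 to 7.70 in saline (median 6.50). It rose by 2.32 ± 0.17 log2 units (adjusted p = 9.57e-10), while after intradermal gel its log2 fold change was -1.46 (adjusted p = 9.95e-08), so that the effects differed by 3.78 (adjusted p = 3.34e-10). Il20 was lower in SC saline than in ID saline (log2 difference -0.69, adjusted p = 0.0301). SC gel exceeded ID saline by 1.63 (adjusted p = 3.37e-08). S100a9, an alarmin of stressed keratinocytes and of neutrophils, rose by 2.32 ± 0.46 (adjusted p = 0.000229), from 14.2 to 20.7 CPM up to 37.6 to 116, and by 1.11 against ID saline (adjusted p = 0.0381).

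**Figure D3:**
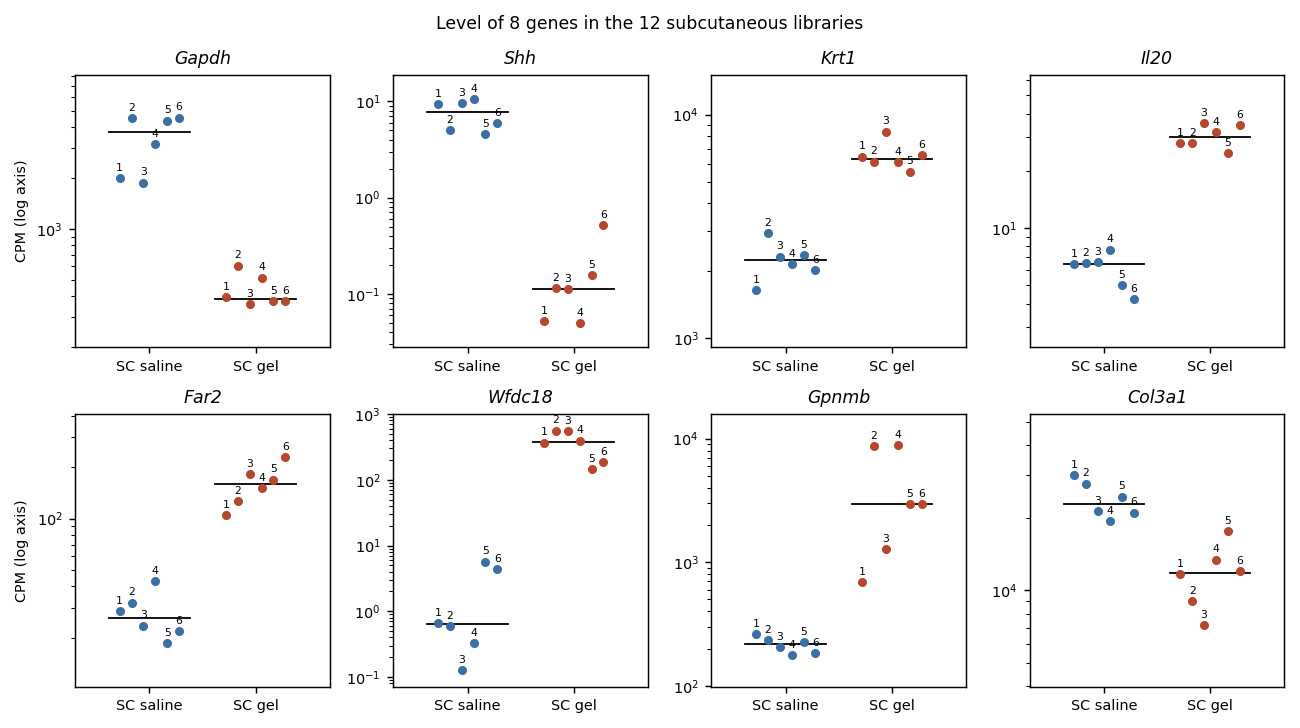
CPM (log axis, values under 0.05 drawn at 0.05) of 8 genes in the 12 subcutaneous libraries; points carry replicate numbers and bars are group medians. Gapdh, Shh and Col3a1 are lower in all 6 gel libraries than in any saline library, and Krt1, Il20, Far2, Wfdc18 and Gpnmb are higher, Gpnmb with a spread of 694 to 8820 CPM within the gel group.

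Genes of sebum and of lipid synthesis were also higher than in SC saline. Of 18 sebaceous gland genes 14 were higher and none lower (median 0.82, against -1.47 after intradermal gel), while against ID saline 8 were higher and 1 lower (median 0.50). Of 23 genes of sterol and fatty acid synthesis, 19 were higher and none lower (median 0.75). Far2, a fatty acyl reductase that makes the alcohols of wax esters, was at 105 to 228 CPM in gel (median 160) and 18.6 to 42.9 in saline (median 26.2), a log2 fold change of 2.51 ± 0.25 (adjusted p = 3.49e-08). Scd, a stearoyl-CoA desaturase, was at 1520 to 3350 against 648 to 1010 (1.71 ± 0.20, adjusted p = 2.93e-07), and Msmo1, a sterol synthesis enzyme, at 147 to 259 against 60.7 to 95.6 (1.42 ± 0.18, adjusted p = 1.32e-06). The groups did not overlap for the 3 genes. Far2 had the opposite sign after intradermal gel (log2 fold change -1.29, adjusted p = 4.84e-05), and the effects differed by 3.80 (adjusted p = 1.60e-08). Msmo1 gave 0.87 against ID saline (adjusted p = 0.000304). It rose at both sites, by 1.05 after intradermal gel, and the difference of 0.37 did not pass the test (adjusted p = 0.223).

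Adipocyte genes were uneven, with 9 of 18 higher and 2 lower (median 0.67), and 6 higher without gel replicate 1. Adipoq, the adipocyte hormone adiponectin, was at 1400 CPM in gel replicate 1 and 191 in gel replicate 4, with 462 to 842 in the other 4 and 155 to 474 in saline. The ranges overlapped, and its log2 fold change was 1.40 ± 0.32 (adjusted p = 0.000787).

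Among 8 tested genes of the whey acidic protein (WAP) family, secreted inhibitors of proteases, 4 were higher and none lower (median 0.91). Wfdc18 was at 145 to 559 CPM in gel (median 380) and 0.128 to 5.67 in saline (median 0.630), the saline values above 1 being those of replicates 5 and 6. Its log2 fold change was 7.56 ± 0.68 (adjusted p = 1.25e-08), and 8.31 without SC saline replicate 5. Wfdc12 followed it at 4.17 to 13.2 CPM against 0 to 1.46 (4.04 ± 0.52, adjusted p = 1.19e-06; 4.77 without SC saline replicate 5). Both were lower in SC saline than in ID saline, with log2 differences of -3.25 (adjusted p = 0.00536) and -1.92 (adjusted p = 0.0489), a comparison in which 3.22% of all genes were called. Against ID saline, which shares no library with SC saline, SC gel was higher by 4.31 for Wfdc18 and 2.12 for Wfdc12. Reads of related WAP genes may be shared in counting.

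Of 13 melanocyte and melanosome genes 9 were higher and 2 lower (median 1.27), and against ID saline 6 were higher and 1 lower (median 0.80). Dct, an enzyme of melanin synthesis, was at 13 to 33.6 CPM in gel (median 26.3) and 1.04 to 2.63 in saline (median 1.60), a log2 fold change of 3.92 ± 0.48 (adjusted p = 7.12e-07). Pmel, which forms the fibrils of the melanosome, was at 7.64 to 16.7 against 2.45 to 4.14 (2.02 ± 0.23, adjusted p = 2.29e-07). Tyrp1, another enzyme of the pathway, was at 8.37 to 19.1 CPM in gel and at 0.0511 or less in saline, so its size depends on single reads, and against ID saline it gave 2.62 (adjusted p = 0.000464). SC saline was lower than ID saline, with log2 differences of -2.01 for Dct (adjusted p = 0.0275) and -1.22 for Pmel (adjusted p = 0.00565), and SC gel exceeded ID saline by 1.91 and 0.80. Mitf, the transcription factor that drives these genes in melanocytes, was called lower (log2 fold change -0.31 ± 0.13, adjusted p = 0.0454), but the call was fragile. It was lost with DESeq2 (-0.27, adjusted p = 0.0785), RLE factors, limma voom, both FPKM fits, the other filters, a replicate block and ID saline as control, and without any 1 of the 6 gel libraries or of SC saline replicates 2, 3, 5 and 6 (-0.14, adjusted p = 0.388 without SC saline replicate 2).

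Mitf and its relatives recognise a short core, TCATGTG, near the start of pigment genes. The core was searched on both strands of the 300 bases around each gene's start (250 before to 50 after, RefSeq, build GRCr8). It was present in 5 of the 10 melanocyte list members with a sequence (Dct, Gpr143, Mlana, Tyr, Tyrp1) and in 3 of 12 of the lipid-handling macrophage list described next (Apoe, Cd63, Gpnmb), against 3.46% of 27457 such windows. A match describes the letters and no binding. The windows of Tyrp1 and Dct are shown because these genes lead the melanocyte list, and that of Gpnmb because it is described among the macrophage genes below and is also a melanosome gene; capitals mark the core or its reverse complement. Tyrp1 lies at chr5:100326875-100327174 on the plus strand, Dct at chr15:101507980-101508279 on the minus strand and Gpnmb at chr4:79340878-79341177 on the plus strand.
Tyrp1: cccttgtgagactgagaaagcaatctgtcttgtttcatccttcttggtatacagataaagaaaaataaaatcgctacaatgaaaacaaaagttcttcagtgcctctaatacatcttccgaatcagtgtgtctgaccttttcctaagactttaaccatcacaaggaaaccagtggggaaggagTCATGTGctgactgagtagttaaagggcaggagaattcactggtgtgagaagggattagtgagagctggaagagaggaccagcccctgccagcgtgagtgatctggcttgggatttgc
Dct: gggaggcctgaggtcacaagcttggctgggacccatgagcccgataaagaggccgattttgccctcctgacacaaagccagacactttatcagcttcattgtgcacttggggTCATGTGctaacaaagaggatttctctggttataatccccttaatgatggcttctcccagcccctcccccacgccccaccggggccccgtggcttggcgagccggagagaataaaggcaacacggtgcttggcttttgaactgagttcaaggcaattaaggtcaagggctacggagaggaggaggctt
Gpnmb: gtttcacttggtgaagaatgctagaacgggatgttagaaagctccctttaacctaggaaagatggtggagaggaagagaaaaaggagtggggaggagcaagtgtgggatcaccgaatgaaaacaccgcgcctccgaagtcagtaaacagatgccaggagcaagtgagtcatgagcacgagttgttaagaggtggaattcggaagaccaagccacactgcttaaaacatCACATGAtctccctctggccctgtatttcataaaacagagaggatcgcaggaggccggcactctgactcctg

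Macrophage genes rose. Of 20 genes of recruited and general macrophages 17 were higher and none lower (median 1.19). Of 19 lipid-handling genes 18 were higher and none lower (median 1.22, 14 of them without overlap between groups). Of 17 genes of macrophage fusion 12 were higher (median 0.91), and of 27 lysosome genes 19 were higher and 3 lower (median 0.68). Gel replicates 2 and 4 carried the most, with summed recruited and general macrophage genes of 7670 and 7630 CPM. Replicates 1 and 3 carried the least (2530 and 2340), and all gel libraries were above the saline libraries (1490 to 1890). The same 4 lists had medians of 3.83, 1.94, 2.71 and 1.90 after intradermal gel. In the difference between sites 19 of the 20 recruited and general macrophage genes and 26 of the 27 lysosome genes were called lower in SC. Among all 14763 tested genes, 4845 were called lower in SC in that difference.

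Gpnmb, a glycoprotein of lipid-loaded macrophages whose promoter window is printed above, was at 694, 8650, 1280, 8820, 2940 and 2950 CPM in gel replicates 1 to 6. Saline held 177 to 262 (median 217), so even gel replicate 1 lay above every saline library. Its log2 fold change was 4.29 ± 0.45 (adjusted p = 8.51e-08). Trem2, a lipid receptor of macrophages, was at 17.3 to 121 CPM (median 36.5) against 3.51 to 7.80 (3.22 ± 0.42, adjusted p = 1.31e-06), and Apoe, the carrier that exports cholesterol, at 3910 to 7960 against 2260 to 2700 (1.22 ± 0.17, adjusted p = 3.45e-06). Mmp9, a gelatinase of macrophages and neutrophils, was at 9.91 to 337 CPM in gel and 0.0663 to 0.795 in saline (7.54 ± 0.83, adjusted p = 1.57e-07; 6.69 without gel replicate 2). Siglec15, a receptor of fusing macrophages and osteoclasts, was at 0.986 to 11.0 CPM against 0 to 0.332 (4.84 ± 0.54, adjusted p = 1.84e-07). In each of these genes gel replicates 2 and 4 were the highest and replicate 1 or 3 the lowest.

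The lysosome genes followed the same libraries. Ctsb, a cathepsin, was at 4300 and 4040 CPM in gel replicates 2 and 4 and at 1330 to 2140 in the other 4, against 799 to 1040 in saline (log2 fold change 1.50 ± 0.24, adjusted p = 1.73e-05). Gusb, the enzyme that trims glycosaminoglycans, was at 60.3 to 352 against 34.9 to 44.5 (2.21 ± 0.29, adjusted p = 1.55e-06), and Ftl1, the light chain of the iron store ferritin and a member of another list, at 692 to 2930 against 434 to 592 (1.70 ± 0.28, adjusted p = 2.50e-05). The 3 lysosome genes that were lower included Gaa, which breaks down glycogen, at 23.8 to 48.4 CPM against 52.4 to 88.2 (-1.10 ± 0.15, adjusted p = 2.59e-06). Genes of resident dermal macrophages did not share the rise, with 2 of 17 higher and 4 lower (median -0.19, 0.07 with limma on log2(FPKM + 1)). Folr2 rose (1.10 ± 0.23, adjusted p = 0.000357), from 34.0 to 54.4 CPM up to 57.5 to 152, while Siglec1, a sialic acid receptor, fell (-1.22 ± 0.26, adjusted p = 0.000435), from 26.6 to 40.4 CPM down to 4.65 to 21.3. ID saline held 10.3 to 27.5 CPM of Siglec1, and against it the call was lost (-0.38, adjusted p = 0.228). After intradermal gel Siglec1 rose by 2.33 (adjusted p = 3.67e-08), and the effects differed by -3.55 (adjusted p = 7.64e-08).

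Of 26 chemokine genes 15 were higher and 1 lower (median 1.26). Ccl9, a macrophage chemokine, was at 2.96 to 92.7 CPM in gel (median 23.3) and 0.193 to 0.530 in saline, a log2 fold change of 6.71 ± 0.80 (adjusted p = 4.64e-07), and Ccl7, which draws monocytes, was at 4.93 to 27.6 against 1.06 to 2.91 (2.99 ± 0.41, adjusted p = 2.78e-06). Members of the Ccl family are similar in sequence and may share reads. Of 23 genes of cytokines and the inflammasome 11 were higher and 1 lower (median 0.63), and against ID saline 12 were higher and none lower (median 0.62). Reads of Tnf and Il6, cytokines of acute inflammation, were few. Tnf was at 0.567 to 2.07 CPM in gel and 0.204 to 1.59 in saline (0.94 ± 0.46, adjusted p = 0.0911). Il6 was at 1.00 or less in every SC library (adjusted p = 0.147). Tnf passed the test against ID saline (1.77, adjusted p = 0.00525), with limma on log2(FPKM + 0.1) (adjusted p = 0.0176), with gel replicates 4 to 6 alone (1.47, adjusted p = 0.0228) and without gel replicate 3 (1.13, adjusted p = 0.0468), SC saline replicate 3 (1.25, adjusted p = 0.0379) or SC saline replicate 4 (1.36, adjusted p = 0.0221). Both had risen after intradermal gel, by 5.43 (adjusted p = 4.28e-10) and 4.27 (adjusted p = 4.25e-08), and the effects differed by -4.49 (adjusted p = 6.53e-06) and -3.18 (adjusted p = 0.00317).

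Among the other immune lists, 8 of 12 neutrophil genes were higher and 1 was lower (median 1.19), and 8 of 12 genes of MHC class I and the immunoproteasome were higher and none lower (median 0.35). T and NK cell genes went both ways, with 4 of 18 higher and 3 lower (median 0.39), as did complement genes, with 4 of 18 in each direction (median -0.20, 0.02 with limma on log2(FPKM + 1)). Of 21 targets of NRF2 and iron-handling genes, to which Ftl1 belongs, 11 were higher and 2 lower (median 0.39). For T and NK cell and complement genes these counts lie at or below the background shares of called genes.

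Of 14 mast cell genes 7 were higher and none lower (median 0.68, against -1.15 after intradermal gel). Fcer1a, the receptor chain for IgE, was at 4.52 to 12.3 CPM against 1.67 to 3.47 (1.64 ± 0.25, adjusted p = 9.80e-06), and Cma1, a mast cell chymase, at 40.6 to 73.6 against 19.3 to 28.1 (1.10 ± 0.17, adjusted p = 1.31e-05). Gel replicate 1 was the highest for both. Of 17 dendritic and Langerhans cell genes 5 were higher, 1 was lower and 11 were not called (median 0.26), beside 24.7% of all genes called higher. Cd207, a marker of Langerhans cells, the dendritic cells of the epidermis, was at 32.2 to 52.6 CPM against 15.8 to 24.2. It rose by 1.03 ± 0.19 (adjusted p = 0.000131), and by 0.60 against ID saline (adjusted p = 0.012). Of 11 MHC class II genes 6 were lower and none higher (median -0.34). Ciita, their master regulator, was at 6.58 to 8.90 CPM in gel and 10.8 to 13 in saline (-0.73 ± 0.14, adjusted p = 0.000174), and after intradermal gel it rose by 1.01 (adjusted p = 7.66e-07). Against ID saline in place of SC saline, 1 class II gene was higher and none lower, and the call of Ciita was lost (-0.22, adjusted p = 0.193).

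The collagen genes depended on the control group. Of 17 genes of interstitial collagens 10 were lower and 1 higher than SC saline (median -0.63). However, 7 of the 17 were called higher in SC saline than in ID saline, beside 3.22% of all genes called in either direction. Against ID saline the median was 0.22 with 2 higher and 2 lower. Col3a1, the chain of reticular collagen, was at 7160 to 17600 CPM in SC gel (median 11900) and 19400 to 30000 in SC saline (median 22900), with no overlap. Its log2 fold change was -1.02 ± 0.23 against SC saline (adjusted p = 0.000901) and 0.22 against ID saline, and SC saline exceeded ID saline by 1.24 (adjusted p = 0.00606). Col1a1 was at 13700 to 31700 CPM in gel and 27700 to 48900 in SC saline, and gave -0.87 ± 0.27 (adjusted p = 0.0101) and 0.25. The same sign change held for Col1a2 (-0.75 and 0.26), whose call was lost without any of gel replicates 2 and 3 or SC saline replicates 1 and 2, with -0.60 and adjusted p = 0.0721 at the largest p, and with limma on log2(FPKM + 1) (-0.55, adjusted p = 0.0633). With gel replicates 4 to 6 alone, Col1a1 (-0.48, adjusted p = 0.249), Col1a2 (-0.37, adjusted p = 0.354) and Col3a1 (-0.59, adjusted p = 0.0839) all lost their calls.

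Several matrix genes kept their direction against both controls. Col11a1, a minor fibrillar collagen, was at 1.66 to 4.27 CPM in gel and 29.8 to 68.1 in saline (-4.04 ± 0.37, adjusted p = 1.37e-08; -3.70 against ID saline), and Fbn2, a fibrillin of growing tissue, at 1.45 to 3.54 against 13 to 30.9 (-2.94 ± 0.36, adjusted p = 7.79e-07; -2.73 against ID saline). Col8a1, a short-chain collagen, rose from 8.92 to 15.4 CPM up to 27.0 to 43.9 (1.51 ± 0.19, adjusted p = 7.59e-07; 1.46 against ID saline). Thbs2, a matricellular protein that binds metalloproteinases, rose from 124 to 167 up to 254 to 395 (1.25 ± 0.14, adjusted p = 3.26e-07; 0.97 against ID saline). Eln, elastin, was at 208 to 324 CPM against 131 to 201 (0.63 ± 0.19, adjusted p = 0.00691; 0.50 with adjusted p = 0.0764 for gel replicates 1 to 3 alone). Serpinh1, the chaperone of procollagen, fell by 1.00 ± 0.12 (adjusted p = 3.66e-07), from 656 to 843 CPM to 280 to 431, and by 0.57 against ID saline. Mmp13, a collagenase, was at 1.76 to 14.3 CPM in gel and at 0.446 or less in saline (4.96 ± 0.80, adjusted p = 2.17e-05), and Mmp11 at 7.09 to 34.7 against 2.57 to 3.78 (2.39 ± 0.36, adjusted p = 7.64e-06). Against ID saline they gave 2.76 and 1.54, both called. Gel replicates 1 to 3 held the 3 highest values of Mmp11.

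Of 7 lymphatic endothelial genes 5 were higher and 1 lower (median 0.82, against -1.01 after intradermal gel). Ccl21, the lymphatic chemokine for dendritic and T cells, was at 90.3 to 266 CPM in gel and 22.8 to 38.9 in saline (2.17 ± 0.26, adjusted p = 5.46e-07), and Mmrn1 at 53.7 to 98.4 against 27.4 to 46.7 (1.10 ± 0.19, adjusted p = 4.43e-05), both without overlap. Of 20 blood endothelial genes 2 were higher and 3 lower (median -0.11, 0.11 with limma on log2(FPKM + 1)), both below the background shares of called genes. Sele, the selectin that slows leukocytes on activated endothelium, was at 29.8 to 45.1 against 10.3 to 28.5 (1.09 ± 0.18, adjusted p = 2.03e-05; 1.75 against ID saline). Of 15 Schwann cell and nerve genes 9 were higher and 1 lower (median 0.47), with Mbp, a myelin protein, at 24.1 to 40.7 CPM against 13.2 to 23.2 (0.93 ± 0.14, adjusted p = 8.64e-06). The lower one, Ncam1, an adhesion molecule that nerve shares with muscle satellite cells, was at 4.10 to 7.58 against 18.5 to 26.4 (-1.99 ± 0.15, adjusted p = 1.82e-09). Smooth muscle and pericyte genes were lower in 9 of 18 and higher in none (median -0.61), and the part of skeletal muscle in the lists that share genes with it was not tested.

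Hox genes encode position along the body axis, and their order within 4 clusters defines paralogue groups. Of 19 tested members of groups 1 to 8 none was higher and 13 were lower (median -0.84), and of 11 of groups 9 to 13, 5 were higher and 3 lower (median 0.13). Hoxa11 was at 8.29 to 14.2 CPM in gel (median 10.4) and 0.449 to 3.01 in saline (median 1.87), a log2 fold change of 2.54 ± 0.38 (adjusted p = 8.61e-06). Hoxc11 was at 7.41 to 18.5 against 0.817 to 6.18 (1.72 ± 0.37, adjusted p = 0.000491). Its SC saline values were 4.81 to 6.18 in replicates 1 to 3 and 0.817 to 2.12 in replicates 4 to 6. Hoxc12, which was picked out with its values known, held 0.737 to 1.42 CPM in gel and 0 in all 6 saline libraries, so it was at least 36.1-fold higher when saline is set to a floor of 3 counts in the group. Among the lower ones Hoxc6 was at 3.75 to 8.62 CPM against 15.3 to 26.5 (-1.71 ± 0.20, adjusted p = 3.26e-07) and Hoxd8 at 16.8 to 21.6 against 35.9 to 70.2 (-1.39 ± 0.17, adjusted p = 6.85e-07). Hoxc13, a gene of the hair shaft, fell with the hair genes (-2.86 ± 0.40, adjusted p = 3.28e-06). Hoxc11 gave 3.44 against ID saline, and SC saline exceeded ID saline by 1.72 (adjusted p = 0.0305). After intradermal gel Hoxa11 and Hoxc11 had log2 fold changes of 2.81 and 2.09, while Hoxa9 and Hoxd10, called higher in SC at 0.92 and 0.96, had -1.08 and -1.02. Where along the back each piece of skin was taken is not given, and its part in these values was not tested.

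**Figure D4:**
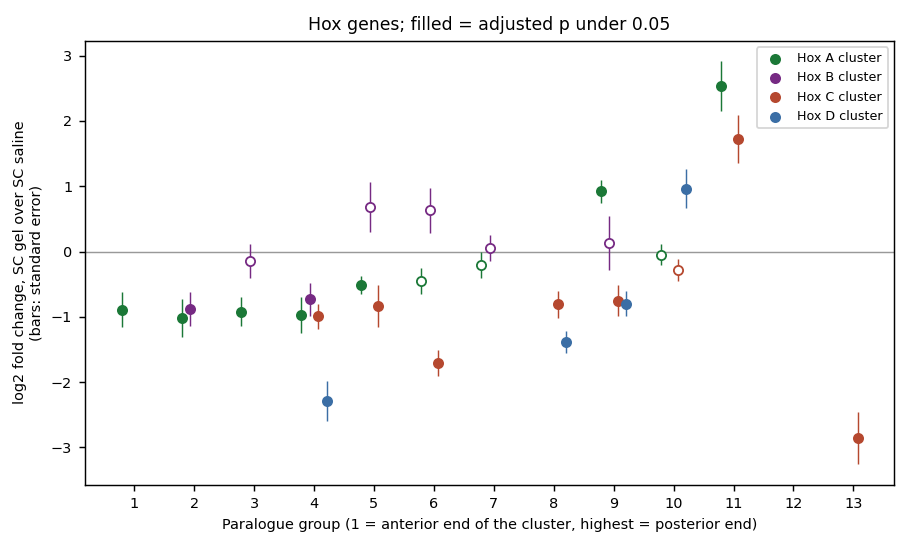
Log2 fold change, SC gel over SC saline, of the tested Hox genes by paralogue group and cluster, with standard errors; filled points passed the test, and Hoxc12 is left out because it had no read in saline. Called genes of groups 1 to 8 all lie below 0, and Hoxa11 and Hoxc11 lie highest at 2.54 and 1.72.

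The SC and ID gel effects had opposite signs, each called and with the difference called, in 823 genes that were higher in SC and lower in ID and in 385 of the reverse kind. The largest positive differences, among genes called with at least 1 log2 unit of change in SC and a mean log2 CPM of at least 3 over the 24 libraries, were those of Wfdc18 (6.21, adjusted p = 9.80e-07), Prr9, Far2, Il20, Slpil3, Aqp3, Clstn3 and Cyp17a1. Aqp3, the glycerol and water channel of keratinocytes, was at 194 to 343 CPM after SC gel and 57.9 to 83.7 after SC saline, and at 16.8 to 52.2 after ID gel and 64.8 to 140 after ID saline. Slpil3, a WAP family gene, and Clstn3, a calsyntenin, had the same pattern with differences of 3.70 (adjusted p = 1.90e-07) and 3.59 (adjusted p = 4.33e-08). Cyp17a1, an enzyme of steroid synthesis, rose in SC by 1.54 (adjusted p = 1.82e-06) and fell in ID by 2.05 (adjusted p = 9.62e-09). For Cyp17a1 SC saline was itself lower than ID saline (log2 difference -1.19, adjusted p = 0.00324), and against ID saline the SC gel call was lost (0.35, adjusted p = 0.137). Against ID saline Aqp3 gave 1.24 and Slpil3 1.14, both called. Prr9 fell at both sites, and its SC value rested on gel replicate 3 (49.8 CPM, the other 5 at 0.400 to 1.76). As for Krt71, its highest SC saline values were those of replicates 1 and 3 (118 and 157 CPM). Its SC log2 fold change was -3.05, and -6.14 without gel replicate 3. With gel replicates 1 to 3 alone there was no call (-2.06, adjusted p = 0.0741).

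The largest negative differences were those of Slc16a3 (-6.12, adjusted p = 1.98e-08), Pvalb, Actn3, Mybpc2, Ccl7, Slc11a1, Lilrb4 and Ncf1. Slc16a3, the lactate exporter of glycolytic cells, was at 1.76 to 6.21 CPM after SC gel and 5.90 to 28.8 after SC saline, and at 105 to 284 after ID gel and 10.1 to 17.7 after ID saline. The fast muscle genes Actn3 and Mybpc2 fell at both sites, with log2 fold changes of -9.47 and -9.04 in SC (-11.12 and -10.79 without gel replicate 1) and of -4.37 and -4.34 in ID. The myeloid genes rose at both: Slc11a1, a metal transporter of phagosomes, rose by 3.00 in SC and 7.06 in ID, Lilrb4, an inhibitory receptor, by 5.01 and 8.99, and Ncf1, a subunit of the phagocyte oxidase, by 2.51 and 6.37. Their differences of -4.07, -3.98 and -3.86 were all called (adjusted p = 2.56e-05, 8.62e-06 and 6.58e-06).

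Some of the genes with the smallest p-values lay outside these lists and had changes of under 3 log2 units with little spread between libraries. Otulinl, a relative of a linear-ubiquitin deubiquitinase, was at 64.2 to 83.3 CPM in gel and 22.0 to 31.6 in saline (1.50 ± 0.09, adjusted p = 8.50e-11). Serpinb1a, an inhibitor of neutrophil proteases, was at 68.8 to 91.8 against 21.0 to 31.3 (1.71 ± 0.12, adjusted p = 7.26e-10), and Atl3, which shapes the endoplasmic reticulum, at 193 to 244 against 102 to 123 (0.95 ± 0.07, adjusted p = 8.60e-10). Sik2, a salt-inducible kinase, was at 130 to 183 against 59.2 to 85.5 (1.16 ± 0.09, adjusted p = 2.89e-09). On the lower side stood Carnmt1, which makes the muscle dipeptide anserine, at 8.02 to 14.0 CPM against 44.7 to 90.0 (-2.70 ± 0.15, adjusted p = 3.33e-11), Zbtb18, a zinc finger repressor, at 22.5 to 27.4 against 52.7 to 88.7 (-1.56 ± 0.11, adjusted p = 8.60e-10), and Flrt2, a guidance and adhesion protein, at 34.1 to 48.0 against 101 to 121 (-1.52 ± 0.11, adjusted p = 1.32e-09). Otulinl, Serpinb1a and Sik2 rose by 1.62, 1.55 and 1.25 after intradermal gel as well, and their differences between sites of -0.12, 0.16 and -0.09 did not pass the test (adjusted p = 0.428, 0.434 and 0.577).

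Some genes split the gel group itself, which left them with no call. Hba-a2, a globin chain of red cells, held 1530 to 2890 CPM in gel replicates 1 to 3 and 25900 to 31600 in replicates 4 to 6, with saline between them at 5960 to 19600 (median 10500). None of the 10 red cell genes passed the test, and Hba-a2 gave 0.33 ± 0.70 (adjusted p = 0.717). Rsad2, an antiviral gene induced by interferon, split the same way at 4.14 to 8.51 and 114 to 151 CPM, and Lao1, an L-amino acid oxidase, split the opposite way at 61.8 to 116 and 2.14 to 7.00. Against ID saline, Hba-a2 (1.79, adjusted p = 0.039) and Rsad2 (2.45, adjusted p = 0.00525) passed the test. For both genes, however, gel replicates 1 to 3 lay within the ID saline range (1270 to 10100 and 3.73 to 31.5 CPM). Against SC saline, Rsad2 was called lower with gel replicates 1 to 3 alone (-2.78, adjusted p = 0.000841). With gel replicates 4 to 6 alone it was called higher (1.54, adjusted p = 0.00922). The summed interferon list came to 331 to 482 CPM in gel replicates 1 to 3 and 763 to 953 in replicates 4 to 6, with saline at 451 to 620. Of its 25 genes 6 were called higher and none lower (median 0.14), beside 24.7% of all genes called higher. The labels name no batch for these libraries, and what parts them was not tested. Globin genes are near-identical copies and may share reads.

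**Figure D5:**
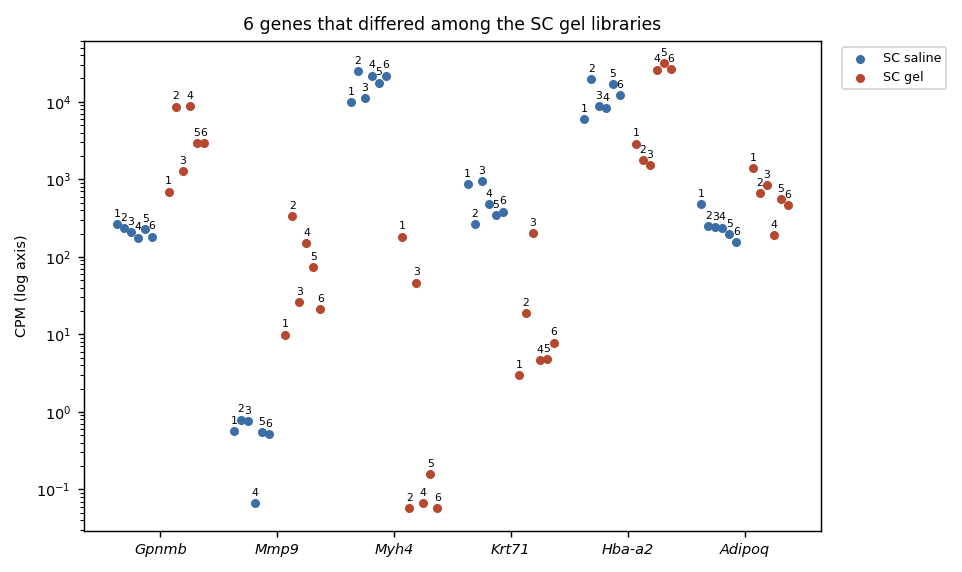
CPM (log axis, values under 0.05 drawn at 0.05) of 6 genes in the SC saline and SC gel libraries, each point labelled with its replicate number. Gpnmb and Mmp9 are highest in gel replicates 2 and 4, Myh4 in gel replicates 1 and 3, Krt71 in gel replicate 3 and Adipoq in gel replicate 1, while Hba-a2 parts gel replicates 1 to 3 (1530 to 2890 CPM) from 4 to 6 (25900 to 31600).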

How the data were processed

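RNA was sequenced from rat skin in 24 libraries, 6 in each of 4 groups set by the sample titles. The authors deposited a table of read counts per gene and of FPKM (fragments per kilobase of gene and library size) for the same libraries, per the file headers. The submitters' processing notes name FastQC 0.11.2, Trimmomatic 0.36, StringTie 1.3.3b, DESeq2 1.12.4 and the build Rnor_6.0. For the aligner, the counting tool and the strand setting, nothing is given in the sources used here, so reads of a gene and its antisense partner cannot be told apart. Gene coordinates are not printed, and promoter windows come from RefSeq (build GRCr8).

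Of 23095 genes, 14763 passed edgeR's expression filter. One mean per group was fitted over all 24 libraries (20 residual degrees of freedom) with TMM scaling and edgeR's quasi-likelihood test, and p-values were adjusted over all tested genes by Benjamini-Hochberg at 0.05. The spread was thus estimated from all 4 groups. Levels are CPM with TMM scaling, and the SE is the size of the log2 fold change divided by the square root of F. The code was tested on simulated data. R 4.3.3, edgeR 4.0.16, limma 3.58.1, DESeq2 1.42.0, Python 3.11.15, pandas 2.3.3, numpy 2.4.6 and matplotlib 3.10.9 were used.

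The 51 gene lists held 1064 entries, of which 54 had no match. The members and lists were chosen with earlier results of these data known. Genes were named from those with the largest changes, the smallest p-values, the largest gain or loss of CPM, the largest changes within a list, the largest difference between sites and the largest spread among gel libraries, and from a panel of 25. The ones shown were picked from these by role, with their values known, and Hoxc12 was added after its values were seen. Alternatives were DESeq2, limma voom, limma on log2(FPKM + 1) and log2(FPKM + 0.1), RLE factors, TMM without muscle genes and other filters. Further ones were the 2 groups alone, ID saline as control, a replicate block and leaving out each library of the groups compared. Use of gel replicates 1 to 3 or 4 to 6 alone was chosen after seeing the data.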

Additional observations from a re-analysis of the deposited data

Results flagged for a closer look

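In 7 of 198 groups of 6 libraries, each for a named gene or a measure of library size in gel or in saline, a single library stood apart by Dixon's ratio, the gap to the nearest other library over the group's range, above its 95% critical value. Chance gives about 1 in 20 groups. In the gel group these were Pgm1 (highest in gel replicate 1, ratio 0.86), Siglec1 (lowest in replicate 3, 0.64) and Prr9 (highest in replicate 3, 0.72). In the saline group these were Scd (0.66), highest in replicate 4, Mmp9 (0.77), lowest in replicate 4, Tyrp1 (1.00), highest in replicate 1, the only one with a read, and Aqp3 (0.78), highest in replicate 3.

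The effects of the gel at the 2 sites differed, by a test of the difference itself, in the 16 genes picked for the size of that difference, which is therefore a description. In log2 units, SC minus ID, it was 6.21 for Wfdc18, 4.06 for Prr9, 3.80 for Far2, 3.78 for Il20, 3.70 for Slpil3, 3.60 for Aqp3, and 3.59 for both Clstn3 and Cyp17a1. It was -6.12 for Slc16a3, -5.22 for Pvalb, -5.10 for Actn3, -4.70 for Mybpc2, -4.31 for Ccl7, -4.07 for Slc11a1, -3.98 for Lilrb4 and -3.86 for Ncf1.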

How the results depend on the processing

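The 7504 called genes were 7101 to 7577 with any 1 SC library left out, while those called higher were 3583 to 4885 and those called lower 2692 to 3726. With limma on log2(FPKM + 0.1) and log2(FPKM + 1), 5737 and 5827 genes were higher and 1949 and 1986 lower, and with gel replicates 4 to 6 alone 2372 were lower; the cause was not tested. Of the called genes 5973 (79.6%) were also called in the same direction against ID saline and 9 in the opposite one. SC and ID saline differed in 475 genes, in 1038 with DESeq2, 1600 with limma voom, 316 with no filter and 132 to 889 with 1 library left out (132 without SC saline replicate 2, 889 without SC saline replicate 5). The difference between sites had 7513 to 8615 called genes across the alternatives other than left-out libraries, and it cannot be fitted on the SC groups alone. A replicate block gave 7542 called genes, 3649 higher and 3893 lower, and deviations of same-numbered libraries correlated at -0.17, -0.16, 0.28, -0.07, -0.05 and -0.06, with 1 of 6 best with its own number, so the numbers were not taken as pairs. Of 91 called genes among the 97 named, 88 never changed sign. Against ID saline the calls of Ciita, Cyp17a1, Mitf, Mki67, Siglec1 and Wnt10a were lost. Against ID saline, Col1a1 (0.25), Col1a2 (0.26), Col3a1 (0.22) and Lao1 (-0.49) changed sign. Hba-a2 and Rsad2 changed sign with log2(FPKM + 0.1) (-0.33 and -0.37), log2(FPKM + 1) (-0.33 and -0.25), limma voom (-0.02 and -0.03), the replicate block (-0.50 and -0.12) and gel replicates 1 to 3 alone (-2.51 and -2.78), and Lao1 with limma voom (-0.34) and gel replicates 4 to 6 alone (-1.97). The medians of 13 lists changed sign under some setting, among them interstitial collagens, red cell genes and interferon genes. Genes at few reads, such as Tyrp1, Hoxc12 and Il6, are limited by depth.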
